A study of Enchytraeus crypticus with 30 samples.

Results

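The response of the soil worm *Enchytraeus crypticus* to nickel nitrate after 7 days was measured by comparing the arrays labelled NiNO3 EC50 7days (3 arrays) with those labelled Control 7days (3 arrays), 6 of the 30 arrays of the series. The treated animals were kept in the natural standard soil LUFA 2.2 with NiNO3 at 60 mg of Ni per kg of soil, the EC50, that is, the concentration that lowers reproduction by 50%, and the control animals in the same soil with nothing added. Each array carries the RNA of one replicate, extracted from a pool of 20 whole adult worms with a developed clitellum, which had shared a test vessel. Neither group was fed during the exposure. The other 24 arrays hold 8 further conditions with 3 arrays each: a day 3 control, NiNO3 EC50 at day 3, NiNO3 EC20 and Ni nanoparticles (Ni-NPs) at EC20 and EC50, at the same days.

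Enchytraeids are small white annelids, relatives of the earthworms, which live on decaying matter and microbes in the litter and upper soil, and take up dissolved metals both through the body wall and from the soil they swallow. They are a standard test animal for soil contaminants, with reproduction as the usual endpoint. Nickel nitrate is a soluble salt that releases divalent nickel ions. In animal cells an excess of such ions can bind to proteins in the place of other metals and is commonly met by metal-binding molecules and antioxidant defences.

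The arrays are 1-colour Agilent arrays with 43750 non-control probes, each for a different sequence of this species. A probe was tested when its signal was positive and significantly above background on all 30 arrays, which held for 24653 probes (56.3%). Levels are the log2 of the processed signal minus the median of the tested probes on the same array, so that a level of 0 is that of the middle probe. The probes are named after assembled sequences (contig) or single sequencing reads (names starting with GYUW2K), and the files pair none of them with a gene or a function. The results are therefore given for named sequences, and no pathway or cell type could be looked up. The RNA is that of whole animals, so fewer cells of a type and less RNA per cell cannot be told apart.

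Before normalization, the median log2 signal of the tested probes was between 6.21 and 6.27 on the NiNO3 EC50 arrays and between 5.57 and 6.09 on the control arrays. The share of all probes well above background was between 57.3% and 63.5% on the NiNO3 EC50 arrays, against 52.0% to 55.8% on the control arrays. The NiNO3 EC50 arrays correlated with each other at between 0.985 and 0.987, across the tested probes. Control replicate 1 stood apart from the rest, with a correlation between 0.961 and 0.966 with each of the other 5 arrays, while all the other pairs were between 0.970 and 0.987. The median within-group SD of a probe was 0.19 in NiNO3 EC50 and 0.32 in the control. All 6 arrays were scanned on one day, on 4 slides, each of which also held arrays of other conditions.

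After 7 days at the EC50, 330 of the 24653 probes (1.34%) differed from the control with an adjusted p below 0.05 (limma, one mean per condition over all 30 arrays, Benjamini-Hochberg). Of these, 168 were raised (0.681% of the probes tested) and 162 were lowered (0.657%), so that the response ran in both directions in nearly equal numbers. The median difference was 1.31 on the log2 scale over the raised probes, a 2.49-fold rise, and -1.38 over the lowered probes, a 2.61-fold fall. Over all probes tested, the median difference was -0.04, with quartiles at -0.27 and 0.21. Among the 330 called probes, fitted changes over 4-fold were found for 28 raised and 35 lowered, and over 8-fold for 8 raised and 5 lowered. These counts include probes whose change is only a bound.

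The split between raised and lowered probes changed with the processing, and the cause was not tested. It stayed near even with quantile normalization (217 raised, 174 lowered) and with the 75th percentile as the common level of the arrays (197 and 171). With the study's MedianCD normalization, which takes its reference level from the genes found not to vary between conditions, 264 probes were raised and 105 lowered (71.5% raised, against 50.9% here). Its SVCD normalization also rests on such genes, but finds the level with vectors of standardized values in place of medians. With it, 311 were raised and 106 lowered (74.6% raised). These shift the median difference of all tested probes to 0.09 and 0.11. The normexp correction of the background turned the split the other way, with 41 raised and 111 lowered. With slide as a block the count was 172, with 102 raised and 70 lowered, and 142 of them were among the 330. The count also depended on single arrays: it was 136 and 139 without replicates 1 and 2 of NiNO3 EC50, and 180 and 182 without replicates 1 and 3 of the control.

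**Figure D1:**
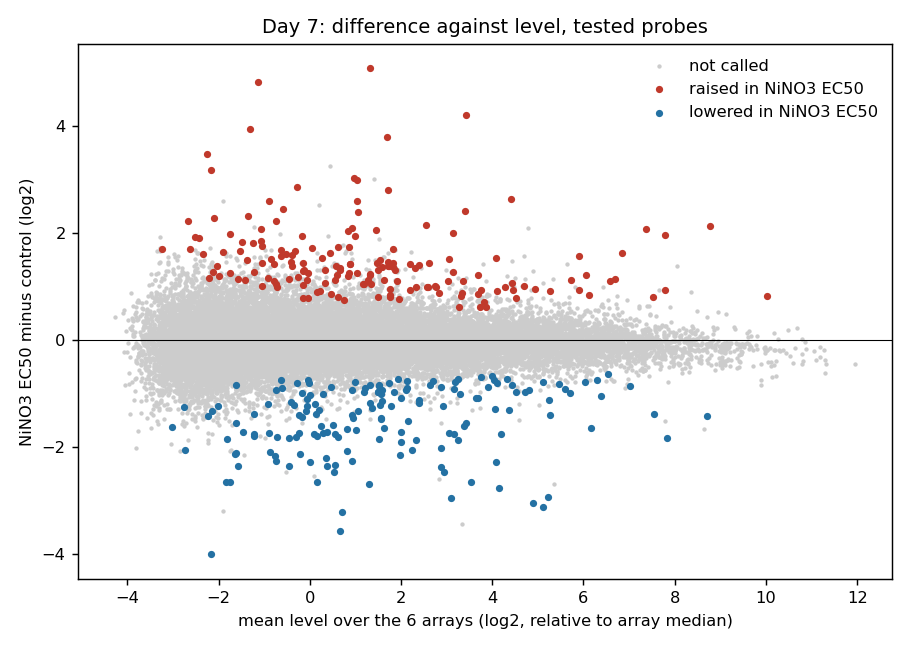
Difference between NiNO3 EC50 and control at day 7 (log2) against the mean level over the 6 arrays (log2, relative to the array median), one point per tested probe. Raised probes (red, 168) and lowered probes (blue, 162) were called over most of the range of levels, and among those well above background on all 6 arrays the largest differences were 5.08 and -3.58.

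Fewer probes were called at the lowest levels. Among the tested probes in the highest quartile of mean level over the 6 arrays, 49 were raised and 56 lowered (0.795% and 0.909%), and in the next quartile down 60 and 63 (0.974% and 1.02%). The lowest quartile had 16 raised and 11 lowered (0.26% and 0.178%). Contigs made up 47.6% of the raised probes and 61.1% of the lowered ones, against 50.9% of all tested probes.

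All 168 raised probes, and 155 of the 162 lowered ones, had the 3 NiNO3 EC50 arrays on one side of the 3 control arrays. Over all tested probes, such groups with no overlap were found for 20.7%, that is, 9.26% with NiNO3 EC50 higher and 11.5% with NiNO3 EC50 lower. The other 7 lowered probes overlapped. NiNO3 EC50 replicate 3 lay above the lowest control array in 6 of them, and control replicate 3 lay below the highest treated array in 5. Slide 4 holds one array of either group, NiNO3 EC50 replicate 1 and control replicate 2. Between these, the median difference was 1.27 over the raised and -1.51 over the lowered probes, with 168 and 161 of them in the direction of the call. Both arrays also took part in choosing the probes, so these values are a description only.

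The largest rise was that of contig07722. Its level was 3.97, 4.55 and 3.06 on the NiNO3 EC50 arrays, against -1.40, -0.95 and -1.31 on the control arrays. The lowest treated array thus lay 4.01 above the highest control array, and the sequence was well above the middle of the tested probes in treated animals and below it in the control. The difference was 5.08 ± 0.50 (SE), or 33.9-fold (adjusted p = 3.01e-06, limma). Across the alternatives this difference ran from 3.17 to 5.48.

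Among the raised probes well above background on all 6 arrays, GYUW2K402HVQN1 and GYUW2K401BYI0P followed. GYUW2K402HVQN1 had levels of 5.73, 5.85 and 4.98 in NiNO3 EC50 and of 1.09, 1.62 and 1.24 in the control, a difference of 4.20 ± 0.42 (18.4-fold, adjusted p = 3.01e-06, limma). GYUW2K401BYI0P had 3.78, 3.81 and 3.21 in NiNO3 EC50 and -0.50, 0.17 and -0.27 in the control, a difference of 3.80 ± 0.42 (13.9-fold, adjusted p = 8.43e-06, limma). In both, as in contig07722, replicate 3 was the lowest of the treated arrays and still far above every control array.

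Some rises were tighter within the treated group. Contig01277 had levels of 3.14, 3.11 and 3.09 in NiNO3 EC50, against 0.70, 0.12 and 0.10 in the control, and rose 7.01-fold (adjusted p = 3.01e-06, limma). Contig05364 had 5.89, 5.73 and 5.58 in NiNO3 EC50 and lay between 3.02 and 3.17 on the 3 control arrays, and rose 6.21-fold (adjusted p = 1.83e-05, limma). In these the treated arrays spanned a small part of the distance between the groups.

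Contig17562 was the least even of the 12 largest rises on the control side. It had 2.27, 2.78 and 2.55 in NiNO3 EC50, against -0.64, -1.24 and 0.52 in the control, where replicate 3 was the highest. Its difference was 2.99 ± 0.52 (7.92-fold, adjusted p = 0.00225, limma). The remaining 6 of these 12, contig24978, contig05362, GYUW2K401BP9T5, contig19661, contig05175 and GYUW2K402IP9J9, had differences between 2.39 and 3.02. Of the 12, only GYUW2K401BP9T5 lost its call with slide as a block, at 2.09 and an adjusted p of 0.0789 (limma).

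Among the lowered probes measured well above background on all 6 arrays, contig21200 fell the most. It had levels of -1.48, -0.99 and -0.94 in NiNO3 EC50, against 2.76, 2.32 and 2.25 in the control, with no overlap. The difference was -3.58 ± 0.34 (SE), an 11.9-fold fall (adjusted p = 2.87e-06, limma). Contig02942 had -1.34, -0.61 and -0.74 in NiNO3 EC50 and 2.99, 2.27 and 1.70 in the control, and fell 9.30-fold (adjusted p = 0.00188, limma).

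A group of sequences with high control levels fell with one array apart. GYUW2K401EB6BI had levels of 2.76, 3.30 and 4.58 in NiNO3 EC50, against 6.85, 6.46 and 6.71 in the control (8.73-fold, adjusted p = 0.00038, limma). GYUW2K402IOYCC had 2.86, 3.02 and 4.20 in NiNO3 EC50, against 6.67, 6.17 and 6.40 in the control (8.32-fold, adjusted p = 2.94e-05, limma). Contig25491 had 3.24, 3.37 and 4.64 in NiNO3 EC50, against 6.37, 6.93 and 6.73 in the control (7.62-fold, adjusted p = 0.00025, limma). In each of these, replicates 1 and 2 of NiNO3 EC50 lay close together, and replicate 3 lay over 1 log2 unit nearer to the control without reaching it.

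Contig09104 behaved differently within the group, with even levels of 1.57, 1.54 and 1.70 in NiNO3 EC50, against 4.08, 4.82 and 4.81 in the control (7.80-fold, adjusted p = 0.000243, limma). GYUW2K402I9BJX had the most even controls of the 12 largest falls, at 1.76, 1.75 and 1.81, against -0.94, -0.89 and -0.27 in NiNO3 EC50 (5.57-fold, adjusted p = 1.04e-05, limma). The other 5 of the 12, contig14950, contig12522, contig26689, contig17509 and contig17891, had differences between -2.77 and -2.46, with treated SDs from 0.79 to 1.03. Contig26689 lost its call with slide as a block, at -2.69 and an adjusted p of 0.0526 (limma).

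**Figure D2:**
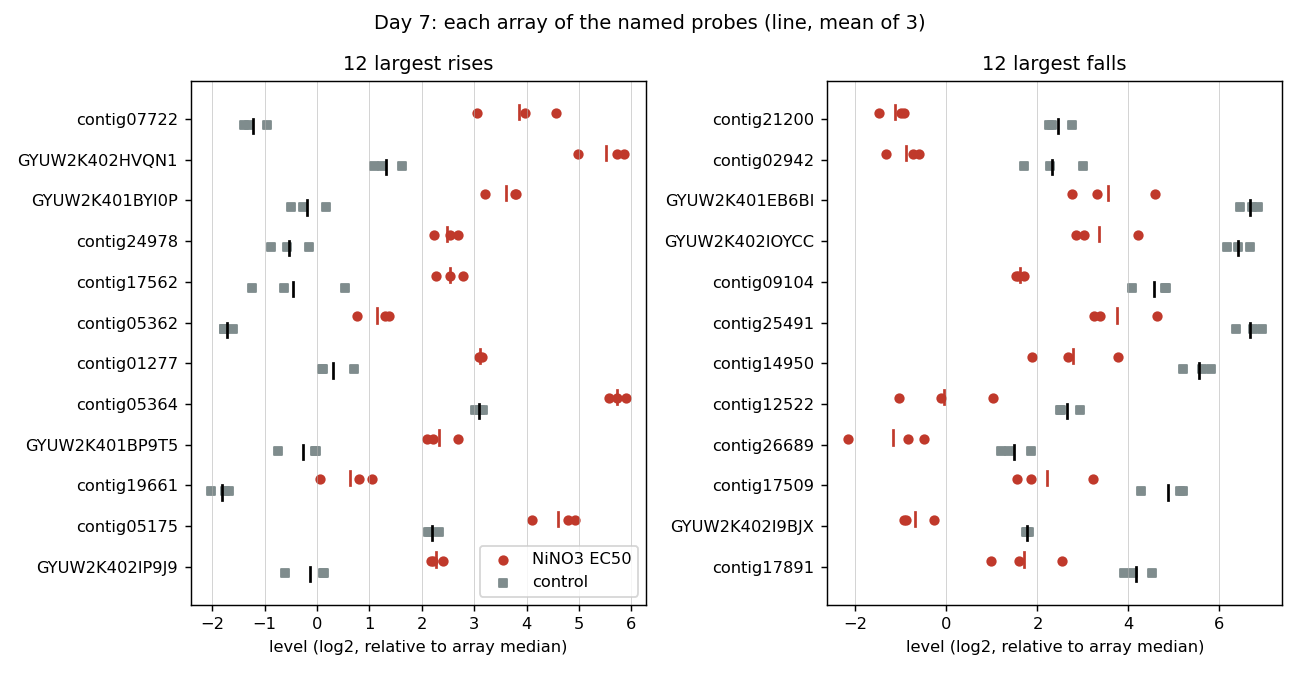
Level (log2, relative to the array median) of the 12 largest rises and the 12 largest falls on each array, NiNO3 EC50 as red circles and control as grey squares, with a line at the mean of 3. The probes were chosen to have no overlap of the groups, so its absence is no result. The gap between the groups is between 1.74 and 4.01 for the rises and between 1.05 and 3.19 for the falls.

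The incomplete shift of replicate 3 was not limited to these probes. Relative to the mean of the controls, the raised probes had a median of 1.35, 1.39 and 1.17 in replicates 1, 2 and 3 of NiNO3 EC50, and the lowered probes had -1.49, -1.45 and -1.02. Replicate 3 was the treated array nearest to the control in 104 of the 168 raised probes (61.9%) and in 126 of the 162 lowered probes (77.8%). Over all tested probes it was the lowest of the 3 treated arrays in 33.8% and the highest in 35.8%. Contig22093, one of the 7 lowered probes with overlap and picked after its values were seen, had levels of 1.12, 0.33 and 3.62 in NiNO3 EC50, against 4.27, 4.74 and 3.20 in the control. Replicates 2 and 3 of NiNO3 EC50 shared slide 6, and replicate 1 was on slide 4. Without replicate 3, 311 probes were called, 260 of them among the 330.

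The 5 called probes of the highest mean level included 3 rises and 2 falls. Contig02567, with the highest mean level, had 10.29, 10.62 and 10.38 in NiNO3 EC50 and 9.57, 9.61 and 9.65 in the control. Its difference was 1.77-fold, just inside the threshold (adjusted p = 0.0425, limma). Its call was lost without any one of the 6 arrays, and also with slide as a block (0.88, adjusted p = 0.234, limma). Contig10742 had 9.76, 9.78 and 9.95 in NiNO3 EC50, against 7.71, 7.68 and 7.71 in the control, and rose 4.36-fold (adjusted p = 0.000111, limma). Contig14832 had 8.67, 8.58 and 9.09 in NiNO3 EC50, against 6.81, 6.92 and 6.70 in the control, and rose 3.92-fold (adjusted p = 0.000407, limma). In these last 2 the groups were well separated and NiNO3 EC50 replicate 3 was the highest array.

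The falls among these probes of highest mean level were contig12635 and contig02579. Contig12635 had 7.73, 7.56 and 8.72 in NiNO3 EC50, against 9.67, 9.19 and 9.41 in the control (2.68-fold, adjusted p = 0.00119, limma). Contig02579 had 6.67, 6.53 and 7.54 in NiNO3 EC50, against 8.65, 8.82 and 8.77 in the control (3.56-fold, adjusted p = 0.000734, limma). Replicate 3 was again the treated array nearest to the control in both.

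For 12 raised probes no control array was well above background, and for 3 lowered probes no NiNO3 EC50 array was, so that their fold changes are only bounds. Each bound sets the mean of the brighter group against the lowest level well above background on the arrays of the other group, or the probe's own level where that is higher. GYUW2K402JE6WU had levels of 0.62, 0.79 and 0.55 in NiNO3 EC50, and -2.74, -3.58 and -3.55 in the control, and was at least 10.4-fold higher in NiNO3 EC50 (adjusted p = 3.01e-06, limma). Contig02388 was at least 4.66-fold, contig09892 at least 4.47-fold and GYUW2K402GSTVJ at least 3.44-fold higher. In the other direction, contig24773 had -3.14, -5.20 and -4.19 in NiNO3 EC50 and 0.17, -0.44 and -0.23 in the control, and was at least 8.19-fold lower in NiNO3 EC50 (adjusted p = 0.000296, limma). These bounds apply only to the processed signal centred on the array median. Across the alternatives, the log2 difference came down to 1.11, 0.76, 0.74 and 0.61 for the rises in this order. That of contig24773 shrank to -0.76. With slide as a block the calls of contig24773 and GYUW2K402GSTVJ were lost, at adjusted p of 0.0507 and 0.364 (limma). The 2 weaker falls, contig12070 and contig16046, were at least 1.99-fold and 2.04-fold lower, and contig12070 was well above background on 2 of the 3 control arrays. The call of contig16046 (adjusted p = 0.0437, limma) was lost under 14 of the 20 alternatives that tested it, among them leaving out any one array other than NiNO3 EC50 replicate 3. That of contig12070 (adjusted p = 0.0181, limma) was lost under 7 of 20, and its fall turned into a difference of 0.022 with the normexp correction.

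GYUW2K401AUZ0K lay outside these groups, being well above background on 1 control array only, and was picked after its values were seen because its fitted difference was the second largest. Its levels were 1.39, 2.19 and 0.25 in NiNO3 EC50, against -4.07, -2.83 and -3.74 in the control (adjusted p = 1.04e-05, limma).

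The same nickel salt and dose at day 3 was compared with controls of its own, which share no array with day 7. At day 3, 178 probes (0.722%) were called, 84 raised (0.341%) and 94 lowered (0.381%). Of these, 50 were among the raised probes of day 7, which is 29.8% of the day 7 list and 59.5% of the day 3 list, and 43 among the lowered ones (26.5% and 45.7%). No probe was called in opposite directions at the 2 days. Of the 168 probes raised at day 7, 160 had a positive difference at day 3 (95.2%), and of the 162 lowered, 146 had a negative one (90.1%). Among all tested probes, the sign at day 3 was the same for 59.4% of those higher and 67.2% of those lower at day 7. The median difference at day 3 was 0.81 over the raised and -0.67 over the lowered probes, against -0.05 over all tested probes. The probes were chosen at day 7, so a smaller median at day 3 is no measure of a change over time.

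Sequences called at both days include contig01277, with a difference of 2.81 at day 7 and 3.26 at day 3, GYUW2K402HVQN1, with 4.20 and 3.11, and contig21200, with -3.58 and -3.02. For contig02942, GYUW2K401EB6BI and GYUW2K402IOYCC the day 3 fall was as deep as that of day 7, with -3.50, -3.29 and -3.24 at day 3. In contrast, contig17509 and contig17891 had -2.65 and -2.46 at day 7 but -0.44 and -0.79 at day 3. For neither did the difference between the days pass (adjusted p = 0.9998, limma). The mean level of contig17891 was 1.35 in NiNO3 EC50 and 2.13 in the control at day 3, and 1.71 and 4.18 at day 7. For contig17509 these means were 3.96 and 4.39 at day 3, and 2.21 and 4.87 at day 7.

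**Figure D3:**
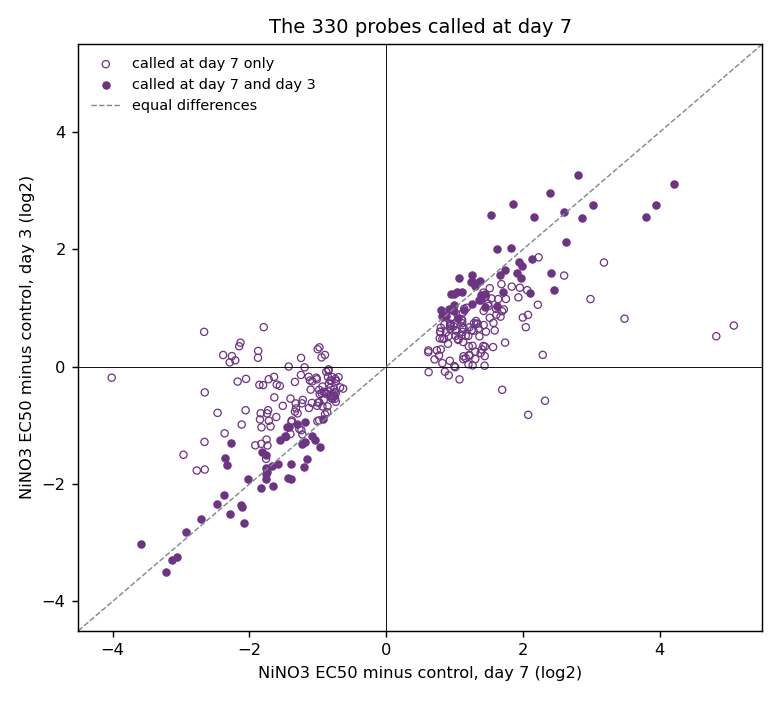
Difference between NiNO3 EC50 and control at day 3 against that at day 7 (both log2) for the 330 probes called at day 7, with filled points for the 93 also called at day 3 in the same direction. Most points lie in the quadrants of equal sign, and contig07722, at 5.08 on the day 7 axis, has 0.70 on the day 3 axis.

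The difference between the responses of day 7 and day 3 was itself tested, in the same fit, as the day 7 difference minus the day 3 difference. It passed for 2 of the 24653 probes (0.00811%; 712, or 2.89%, had an unadjusted p below 0.05), contig11434 and contig07722. Contig11434 had levels of 8.51, 8.60 and 8.10 in NiNO3 EC50 at day 7, against 6.61, 6.28 and 6.10 in its control. At day 3 it had 5.54, 5.68 and 6.07 in NiNO3 EC50, against 6.71, 6.06 and 6.98 in its control. The groups did not overlap at day 7, while at day 3 NiNO3 EC50 replicate 3 lay just above control replicate 2. Its difference from the control was 2.08 at day 7 and -0.82 at day 3, where it was not called (adjusted p = 0.211, limma). The day 7 difference minus the day 3 difference was thus 2.90 ± 0.37 (SE), across a change of sign (adjusted p = 0.00133, limma). The call held without any one of the 12 arrays and was lost with the normexp correction (adjusted p = 0.605, limma) and with only the arrays compared (adjusted p = 0.0865, limma).

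Contig07722 had levels of 0.06, -0.13 and -0.03 in NiNO3 EC50 at day 3, against -0.70, -0.98 and -0.53 in its control, so that its day 3 difference was 0.70. Its response was 4.38 ± 0.71 (SE) larger at day 7 (adjusted p = 0.0312, limma). The call held without NiNO3 EC50 day 7 replicate 3 and was lost without any other one of the 12 arrays, with adjusted p between 0.0507 and 0.202 (limma). It was also lost with slide as a block (0.682), with the normexp correction (0.115) and with no filter on dim probes (0.0856). With scaling to the spike-in transcripts, 0 probes passed this test, and 140 had an unadjusted p below 0.05 (limma). The differences between the days for the other 328 probes, even where the calls differ, did not pass.

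The other exposures at day 7 share the control arrays with NiNO3 EC50, and their values are therefore given side by side. NiNO3 at the EC20, 40 mg of Ni per kg, had 85 called probes (0.345%) and Ni-NPs at their own EC50 had 48 (0.195%). Over the probes raised by NiNO3 EC50 the median difference was 1.31 in NiNO3 EC50, 0.90 in NiNO3 EC20 and 0.89 in Ni-NPs EC50. Over the lowered probes it was -1.38 in NiNO3 EC50, -0.79 in NiNO3 EC20 and -0.63 in Ni-NPs EC50. The probes were selected in NiNO3 EC50, which favours larger medians there, so the order of these medians is no measure of a difference between the exposures. Contig07722 had a difference of 5.08 in NiNO3 EC50, 4.35 in NiNO3 EC20 and 3.81 in Ni-NPs EC50. Contig17562 had 2.99, 3.28 and 3.72 in the same order, and was thus no higher in NiNO3 EC50 than in the other exposures. Contig21200 had -3.58, -3.00 and -2.48, and GYUW2K401EB6BI had -3.13, -1.52 and -1.59.

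**Figure D4:**
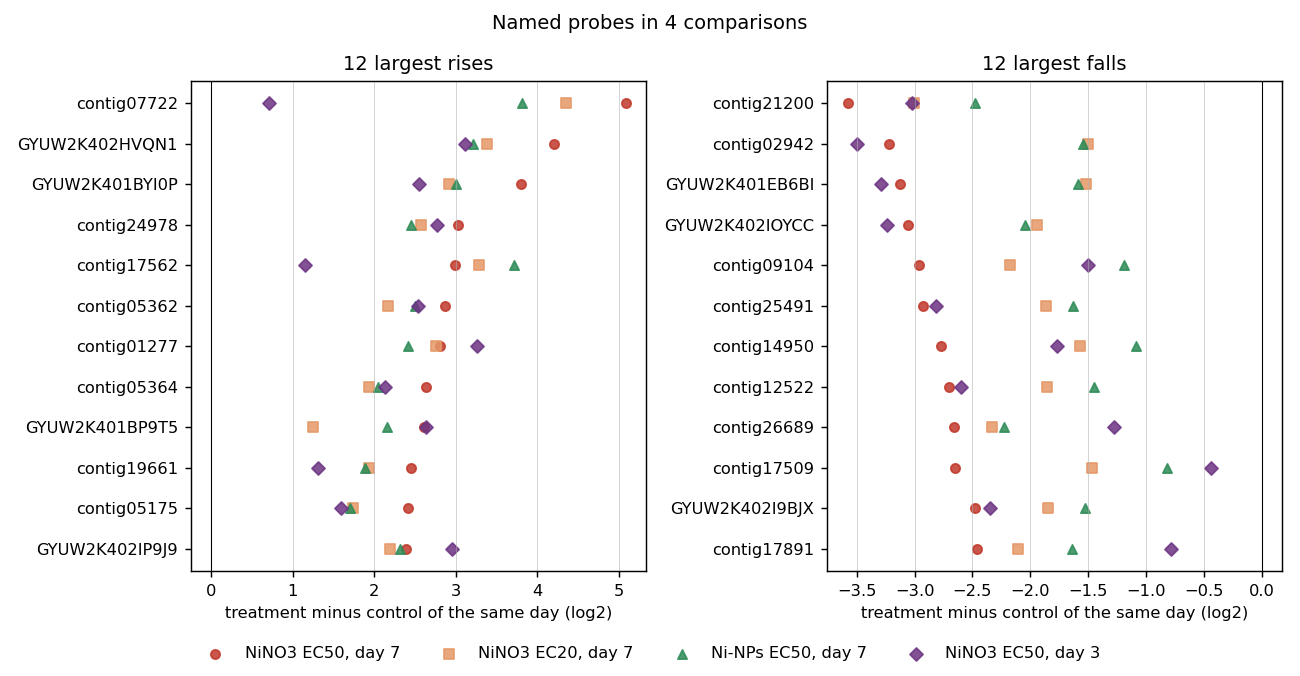
Difference from the control of the same day (log2) for the 12 largest rises and 12 largest falls at NiNO3 EC50 day 7 (red circles), beside NiNO3 EC20 day 7 (orange squares), Ni-NPs EC50 day 7 (green triangles) and NiNO3 EC50 day 3 (purple diamonds). The 3 day 7 comparisons share the control arrays, and all the values lie on the same side of 0 for each probe, from 0.70 to 5.08 for the rises and from -3.58 to -0.44 for the falls.

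Set directly against NiNO3 EC20 at day 7, NiNO3 EC50 had 0 called probes (limma; 1124 of 24653, or 4.56%, had an unadjusted p below 0.05). This does not show that the doses act alike. Over the 330 probes, the 95% interval of the difference reached a median of 0.54 to either side for the raised and 0.57 for the lowered ones. For contig02942, the difference was -1.72, with a 95% interval from -2.85 to -0.58 before adjustment (adjusted p = 0.963, limma). For contig01277 it was 0.06, from -0.54 to 0.65. Without NiNO3 EC50 replicate 3, 13 probes were called, all lower in NiNO3 EC50.

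NiNO3 EC50 and Ni-NPs EC50 were compared at day 7 at the dose labelled EC50 for each, and the mass of nickel in the soil was not compared here. One probe was called (0.00406%; 730, or 2.96%, had an unadjusted p below 0.05). This was contig12382, with levels of -0.76, -0.91 and -0.14 in NiNO3 EC50 and of 0.86, 0.84 and 1.33 in Ni-NPs EC50, while the control had 1.59, 1.87 and 1.71. The level in NiNO3 EC50 was the lowest and did not overlap with either. The difference from Ni-NPs EC50 was -1.62, with a 95% interval from -2.11 to -1.12 (adjusted p = 0.0145, limma). It was called without NiNO3 EC50 replicate 3, and lost without any other one of the 6 arrays (adjusted p from 0.0536 to 0.317, limma) and with slide as a block (adjusted p = 0.281, limma). Against the control, contig12382 fell 5.03-fold in NiNO3 EC50 (adjusted p = 3.01e-06, limma). Without NiNO3 EC50 replicate 3, 20 probes were called, all lower in NiNO3 EC50 than in Ni-NPs EC50.

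**Figure D5:**
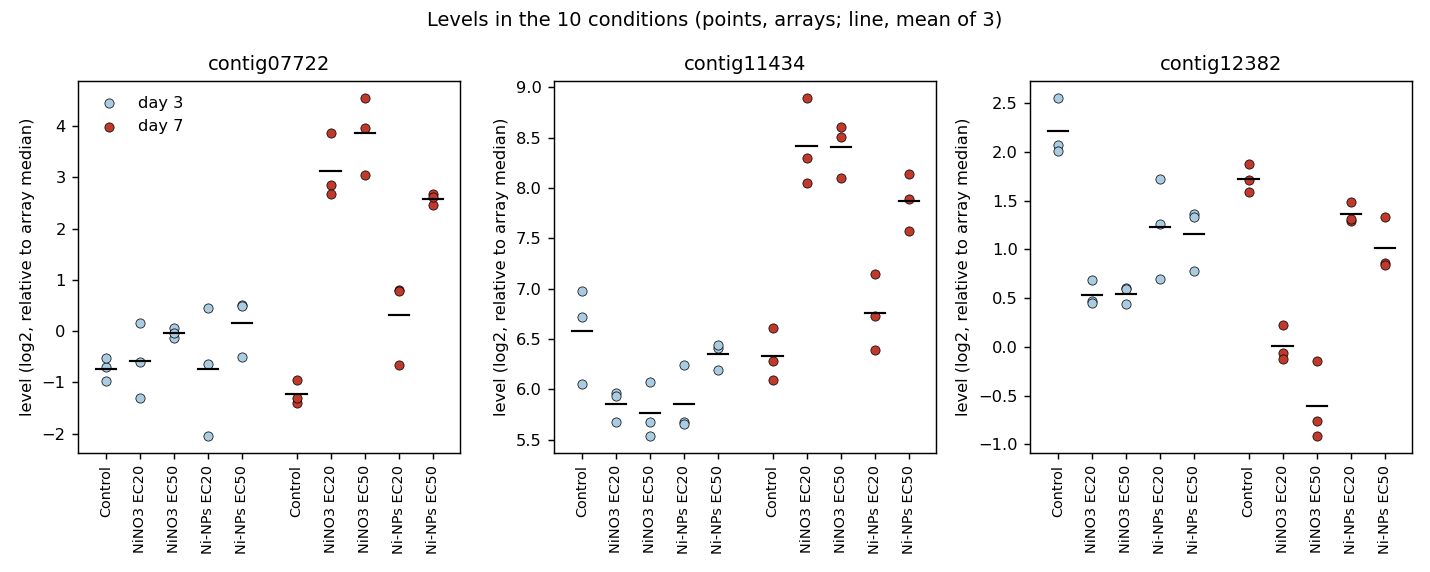
Level (log2, relative to the array median) of contig07722, contig11434 and contig12382 on all 30 arrays by condition, day 3 in blue and day 7 in red, with a line at the mean of 3. The NiNO3 EC50 means at day 7 are 3.86, 8.40 and -0.60 for the 3 probes in this order, against -1.22, 6.33 and 1.73 in the day 7 control.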

How the data were processed

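The scanner files deposited by the authors hold the intensity of each of 45167 spots per array, read with Agilent Feature Extraction 10.7.3.1. The processed signal is corrected for background by that software and is linear, with no scaling of one array to another. Per the file headers and the values, the series table deposited by the authors holds the same intensity values, rounded to a largest log2 difference of 0.00719. Array conditions and replicate numbers came from the sample labels.

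Log2 processed signals were centred on each array's median over the 24653 tested probes. Differences were fitted with limma 3.58.1 in R 4.3.3, with version 1.17.8 of data.table to read files, one mean per condition over 30 arrays, which pools the spread of all conditions. P-values were adjusted by Benjamini-Hochberg over the 24653 probes for each comparison. None of the tested probes was saturated. The fit was also run on simulated data, with independent normal noise around each probe's mean. These data held no effects of slide or array, so this run does not test the fit under such effects. With 3 arrays per group, the number of arrays limits the precision.

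The probes named are, among those called with no overlap and well above background on all 6 arrays, the 12 largest rises and 12 largest falls, then up to 4 bounds per direction, the 5 of highest mean level, and up to 4 probes of each other test. The probes, rules and comparisons were chosen with earlier results of these data known. Lists of pathway genes and cell markers were not used, since the files give no gene names. The alternatives were 4 other normalizations (quantile, 75th percentile, MedianCD and SVCD, the last 2 with the study's code and the seed 20150101), the normexp correction with an offset of 50 (on the median spot signal), filters on dim and outlier spots, the values of the series matrix, blocks for slide, scan day and replicate number, the arrays compared alone, the methods' test of each probe by itself, leaving out each array, and scaling to spike-in transcripts, chosen after seeing the data. Same-numbered arrays of NiNO3 EC50 and control had correlated deviations of 0.05, -0.24 and 0.06, so arrays were not paired by number.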

Additional observations from a re-analysis of the deposited data

Results flagged for a closer look

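The responses of contig11434 and contig07722 to NiNO3 EC50 differed between day 7 and day 3 by the test of the difference itself, by 2.90 and 4.38 on the log2 scale. The call of contig07722 was lost with slide as a block (adjusted p = 0.682, limma), and that of contig11434 with only the arrays compared (adjusted p = 0.0865, limma). The level of contig12382 differed between NiNO3 EC50 and Ni-NPs EC50 at day 7, by -1.62. This call was lost with slide as a block (adjusted p = 0.281, limma) and with only the arrays compared (adjusted p = 0.894, limma).

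Outside the tested probes, which needed a signal on all 30 arrays, 19097 probes were left out of the comparisons above and entered only the alternative with no filter on dim probes. Of these, 290 had a significant signal on all 3 NiNO3 EC50 arrays and on no control array of day 7, and 30 on no NiNO3 EC50 array and on all 3 controls. The NiNO3 EC50 arrays had a signal for more probes in all, between 34886 and 37122, against 33339 to 34327 on the controls, and the part of this in the 290 was not tested. Only 4 of the 290 were well above background on all 3 NiNO3 EC50 arrays: contig02495, contig08194, contig12978 and contig25379. With the processed signal, they were at least 3.02-fold, 2.92-fold, 2.52-fold and 1.55-fold higher in NiNO3 EC50. The bound of contig02495 was 1.73-fold without NiNO3 EC50 replicate 1. Contig08194 had levels of -1.39, -1.27 and -0.89 in NiNO3 EC50, against -4.48, -5.02 and -4.70 in the control, and contig02495 had 0.47, -1.94 and -1.94, against -4.27, -4.85 and -4.58. No probe was well above background on all 3 controls with no signal on the NiNO3 EC50 arrays.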

How the results depend on the processing

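The count of 330 probes in NiNO3 EC50 against control was 152 with normexp, 172 with slide as a block, 70 with only the 6 arrays compared, 60 with scaling to the 7 usable spike-in transcripts, which moved the median difference of all probes to 0.35, and 3 with the methods' t-test. It was between 136 and 311 when one array was left out. The other alternatives gave between 230 and 476. Those 60 calls were 47 raised and 13 lowered (78.3% raised). With the replicate number as a block 374 were called, 324 of them among the 330, which describes only shared numbers, as these do not pair the arrays. NiNO3 EC50 against NiNO3 EC20 gave 0 calls and 8 with normexp, and between 0 and 13 without one array. It gave 0 with the replicate number as a block. NiNO3 EC50 against Ni-NPs EC50 gave 1 call, 6 with MedianCD, 15 with normexp, 3 with only probes well above background, 2 with scan day as a block and 0 with no filter on dim probes, slide as a block, spike-in scaling or only the arrays compared. Without one array it gave between 0 and 20, and with the replicate block 1. The day 7 minus day 3 test gave 2 calls, 4 with the 75th percentile, 4 with the replicate block, 5 with scan day as a block, 3 with normexp, none of which was among the 2, 1 with no filter on dim probes, slide as a block or only the arrays compared, and 0 with spike-in scaling. Without one array it gave between 1 and 17. Counts of 0 had between 140 and 1584 probes at an unadjusted p below 0.05 in these last 2 tests, and between 229 and 3193 against NiNO3 EC20 (limma). Of the 38 named probes, only contig12070 changed sign, to 0.022 with normexp. Calls among these 38 were lost for 5 others with normexp, 6 with slide as a block, 11 with spike-in scaling, 15 with only the 6 arrays, 37 with the methods' t-test and between 2 and 5 without one array. The sizes of the differences moved as well. They ran from 3.17 to 5.48 for contig07722 (5.08 in the main fit) and from 1.01 to 2.84 for contig19661 (2.45). For contig21200 they ran from -3.68 to -2.05 (-3.58 in the main fit). The cause of these changes in counts, calls and sizes was not tested, also for the fits with fewer arrays. Dim probes limit the rest, as 17007 of 24653 tested probes were well above background on all arrays.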
